A study of Homo sapiens with 3 samples.

Results

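The regions described here are 2162 ETS1 peaks that lay in the second or a later intron of a protein-coding gene, away from annotated transcription start sites (TSSs) and outside the strongest H3K27Ac regions of SCC25 cells. They were 8.02% of the 26970 peaks in the consensus list, of which 26958 were on chromosomes 1 to 22 and X. A peak was counted here if its midpoint was more than 1500 bp from any GENCODE 44 TSS on hg19, fell in intron 2 or higher of a canonical protein-coding transcript and in no exon or first intron of any such transcript, and if the peak overlapped no H3K27Ac region of ranks 1 to 1900 in the study's own ranking. That ranking comes from the ROSE algorithm, which stitches neighbouring H3K27Ac peaks (acetylation of histone H3 at lysine 27, a mark of active enhancers and promoters) and calls the strongest of them super-enhancers (SEs), here ranks 1 to 965. The consensus list itself was called from ETS1 ChIP signal, but no measured ETS1 signal entered the choice among its peaks. ETS1 binding was measured by ChIP-Seq in 3 samples of untreated SCC25 cells, an established cell line derived from a tongue squamous cell carcinoma. The antibody was C20 in 2 samples and 501A in 1. These samples were combined by the authors into 1 list of positions without signal, score, summit or values per sample, so that every statement below is about where peaks lie and what sequence they cover. No spread between replicates could be computed, the antibodies could not be compared, and the markers of the cell line could not be checked, since a list of positions holds no expression values. Intervals are 95% intervals for counting alone. Peaks of the same gene or cluster share their source and are not replicates, so that the intervals and p-values are narrower and smaller than independent experiments would give.

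ETS1 is the founding member of the ETS family of transcription factors, which bind DNA through a winged helix-turn-helix domain at sites built around GGAA. Family members often bind beside partners, and the pairing of an ETS site with a site for AP-1, the dimer of FOS and JUN proteins, is a classical arrangement of growth factor responsive enhancers. In squamous carcinoma ETS1 is known as a regulator of invasion, matrix proteases and epithelial to mesenchymal transition (EMT). Introns are transcribed and then spliced out, and besides splicing signals they hold many enhancers. First introns are closest to the promoter, whereas later introns make up most of the length of long genes.

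A set of 11 windows of 200 bp around peak midpoints show the kinds of sequence that these peaks cover. They are given 5′ to 3′ on the plus strand of GRCh37 (the same nuclear sequence as hg19), with matches to the ETS core (AGGAAG or AGGAAA, on either strand) and to AP-1 (TGANTCA, which is its own reverse complement apart from the central base) in capitals. For each kind the earliest peaks in the list were taken, each in another gene. The number printed of each kind was fixed and does not follow how common the kind is. Of all 2162 windows of 200 bp, 13.3% held both motifs, 40.1% an ETS core only, 13.1% AP-1 only and 33.5% neither. The order of the list is not given in the sources used here, so that this choice only names examples. The first 4 held both motifs and lay in intron 2 of LRRC8A, a subunit of volume-regulated anion channels, intron 2 of PRKCE, protein kinase C epsilon, intron 3 of STN1, a telomere maintenance factor, and intron 2 of PPARD, a nuclear receptor for fatty acids. In the PRKCE window the ETS core and the AP-1 match were separated by 1 base, and the STN1 window held 2 AP-1 matches.
LRRC8A (chr9:131654784-131654983): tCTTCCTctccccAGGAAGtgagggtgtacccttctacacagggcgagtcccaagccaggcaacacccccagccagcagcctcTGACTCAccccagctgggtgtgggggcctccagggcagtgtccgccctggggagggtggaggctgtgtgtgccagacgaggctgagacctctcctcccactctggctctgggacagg
PRKCE (chr2:46191391-46191590): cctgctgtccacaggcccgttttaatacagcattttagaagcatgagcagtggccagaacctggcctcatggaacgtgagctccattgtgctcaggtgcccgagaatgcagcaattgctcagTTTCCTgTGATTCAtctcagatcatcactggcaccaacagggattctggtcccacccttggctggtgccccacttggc
STN1 (chr10:105668064-105668263): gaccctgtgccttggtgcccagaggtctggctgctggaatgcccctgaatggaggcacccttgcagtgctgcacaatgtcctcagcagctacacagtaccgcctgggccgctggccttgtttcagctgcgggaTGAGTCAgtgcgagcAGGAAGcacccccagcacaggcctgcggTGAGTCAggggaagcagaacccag
PPARD (chr6:35338164-35338363): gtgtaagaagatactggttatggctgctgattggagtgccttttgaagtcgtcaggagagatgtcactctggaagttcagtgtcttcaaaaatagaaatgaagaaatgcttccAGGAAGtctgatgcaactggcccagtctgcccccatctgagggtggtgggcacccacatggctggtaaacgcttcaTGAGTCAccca
The next 3 held an ETS core and no AP-1 match. They lay in intron 9 of USP20, a deubiquitinase, in intron 2 of TGFBR3, the TGF-beta co-receptor betaglycan, and in intron 6 of a locus that the annotation lists only by its identifier.
USP20 (chr9:132625590-132625789): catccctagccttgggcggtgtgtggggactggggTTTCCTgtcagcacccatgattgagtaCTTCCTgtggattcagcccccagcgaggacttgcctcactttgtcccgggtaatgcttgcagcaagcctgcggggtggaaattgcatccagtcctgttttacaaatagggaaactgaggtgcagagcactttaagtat
TGFBR3 (chr1:92269960-92270159): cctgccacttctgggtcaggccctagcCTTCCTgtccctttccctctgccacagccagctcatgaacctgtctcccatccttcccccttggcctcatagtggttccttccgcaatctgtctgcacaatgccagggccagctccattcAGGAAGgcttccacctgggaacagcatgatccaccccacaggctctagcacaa
ENSG00000285245 (chr9:136009891-136010090): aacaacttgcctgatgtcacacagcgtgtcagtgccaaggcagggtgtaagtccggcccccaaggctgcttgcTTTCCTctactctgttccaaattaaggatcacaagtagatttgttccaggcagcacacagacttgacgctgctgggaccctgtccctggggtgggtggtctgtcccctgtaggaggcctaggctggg
In the reverse case, an AP-1 match without an ETS core, the earliest peaks were in intron 8 of ANKRD55 and intron 14 of DIS3L2, an RNA exonuclease.
ANKRD55 (chr5:55419656-55419855): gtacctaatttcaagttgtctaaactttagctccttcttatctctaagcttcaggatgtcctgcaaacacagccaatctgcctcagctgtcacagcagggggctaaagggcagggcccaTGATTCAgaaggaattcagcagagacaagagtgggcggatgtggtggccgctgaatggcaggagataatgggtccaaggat
DIS3L2 (chr2:233180303-233180502): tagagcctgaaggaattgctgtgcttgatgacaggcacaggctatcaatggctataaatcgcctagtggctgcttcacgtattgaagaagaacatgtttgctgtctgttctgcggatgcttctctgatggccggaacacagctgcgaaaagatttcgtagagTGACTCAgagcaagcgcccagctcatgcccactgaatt
Neither motif was found in the windows of intron 2 of KCNMA1, the pore of a calcium-activated potassium channel, and intron 4 of RALGPS1, an exchange factor for Ral. Both peaks were wide (1588 and 1433 bp), so that the printed window covered a small portion of each.
KCNMA1 (chr10:79152263-79152462): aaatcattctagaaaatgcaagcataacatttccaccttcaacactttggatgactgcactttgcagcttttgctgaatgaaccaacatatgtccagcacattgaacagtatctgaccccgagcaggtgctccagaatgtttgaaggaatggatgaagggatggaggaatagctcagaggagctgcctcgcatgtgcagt
RALGPS1 (chr9:129748693-129748892): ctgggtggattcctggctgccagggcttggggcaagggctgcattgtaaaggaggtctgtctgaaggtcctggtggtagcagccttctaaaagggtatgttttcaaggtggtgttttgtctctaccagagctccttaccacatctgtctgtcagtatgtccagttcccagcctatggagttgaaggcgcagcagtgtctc

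The distance and H3K27Ac criteria removed a large portion of the peaks in later introns. Of the 12980 peaks beyond 1500 bp of a TSS, 3228 were in later introns only. Among these, 775 (24.01%) overlapped an SE, 291 (9.01%) overlapped only a region of ranks 966 to 1900, and 2162 (67.0%) remained. A further 1453 peaks in later introns were at most 1500 bp from a TSS and were not counted. At the distance limit, the nearest peak inside was 1502 bp from a TSS in SLC25A21 and 654 bp wide, and the nearest outside was 1492 bp from a TSS in PDLIM2 and 1177 bp wide. At the rank limit, a peak of 930 bp in PLLP overlapped the region of rank 1902 and was kept, and a peak of 865 bp in UBALD2 overlapped rank 1892 and was not. In all, 13 of the peaks kept overlapped regions of ranks 1901 to 1999, the last rank in hand.

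Later introns held fewer ETS1 peaks per unit of sequence than first introns or intergenic sequence selected by the same distance and H3K27Ac criteria. The 2162 peaks fell in 672.2 Mb, or 3.22 per Mb (interval 3.08 to 3.36), 1 peak per 311 kb. First introns held 931 peaks in 204.9 Mb, 4.54 per Mb (4.26 to 4.84), and intergenic sequence 5524 peaks in 1532 Mb, 3.61 per Mb (3.51 to 3.70). The density in later introns was 0.708 times that in first introns (0.655 to 0.765, exact conditional binomial test, p = 7.69e-18) and 0.892 times that in intergenic sequence (0.849 to 0.938, p = 6.11e-06).

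Density fell with distance from a TSS. It was 4.36 per Mb at 1.5 to 5 kb (661 peaks), 3.78 at 5 to 10 kb, 3.13 at 10 to 20 kb, 2.76 at 20 to 50 kb, 1.66 at 50 to 100 kb and 0.920 beyond 100 kb (25 peaks). The TSS in question was often not that of the host gene: the median distance to any TSS was 9017 bp, whereas the median distance to the TSS of the host transcript was 77.2 kb. In each of the 4 bins up to 50 kb, later introns were below first introns, with ratios from 0.694 to 0.751, and below intergenic sequence, with ratios from 0.705 to 0.871 (adjusted p from 7.58e-10 to 0.0204 over the 12 exact tests). Beyond 50 kb neither comparison passed. The ratio to first introns was 1.36 at 50 to 100 kb (0.832 to 2.35) and 2.97 beyond 100 kb (0.741 to 25.9), where first introns held 2 peaks.

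Regional base composition moved with density far more than intron class did. In later introns the density was 0.365 per Mb where the surrounding tile of 10 kb had under 38% GC (90 peaks in 246.3 Mb) and 16.1 per Mb where it had over 50% (817 peaks in 50.7 Mb), a ratio of 44.1 (35.4 to 55.4). Tiles with over 46% GC made up 15.03% of the later-intron sequence and held 60.3% of its peaks. First introns rose from 0.336 to 19.6 per Mb over the same bands and intergenic sequence from 0.314 to 22.1. Within bands, the ratio of later to first introns moved closer to 1, at 0.845 (Mantel-Haenszel, 0.782 to 0.913), whereas the ratio to intergenic sequence moved away from it, at 0.753 (0.716 to 0.791). Under 38% GC, the band with the most later-intron sequence, the ratios were 1.09 to first introns (exact conditional binomial test, p = 0.807) and 1.16 to intergenic sequence (p = 0.238), and neither differed from 1 beyond counting error. In the other 4 bands they ran from 0.795 to 0.872 and from 0.718 to 0.777. The comparison within bands was chosen after the data had been seen.

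**Figure D1:**
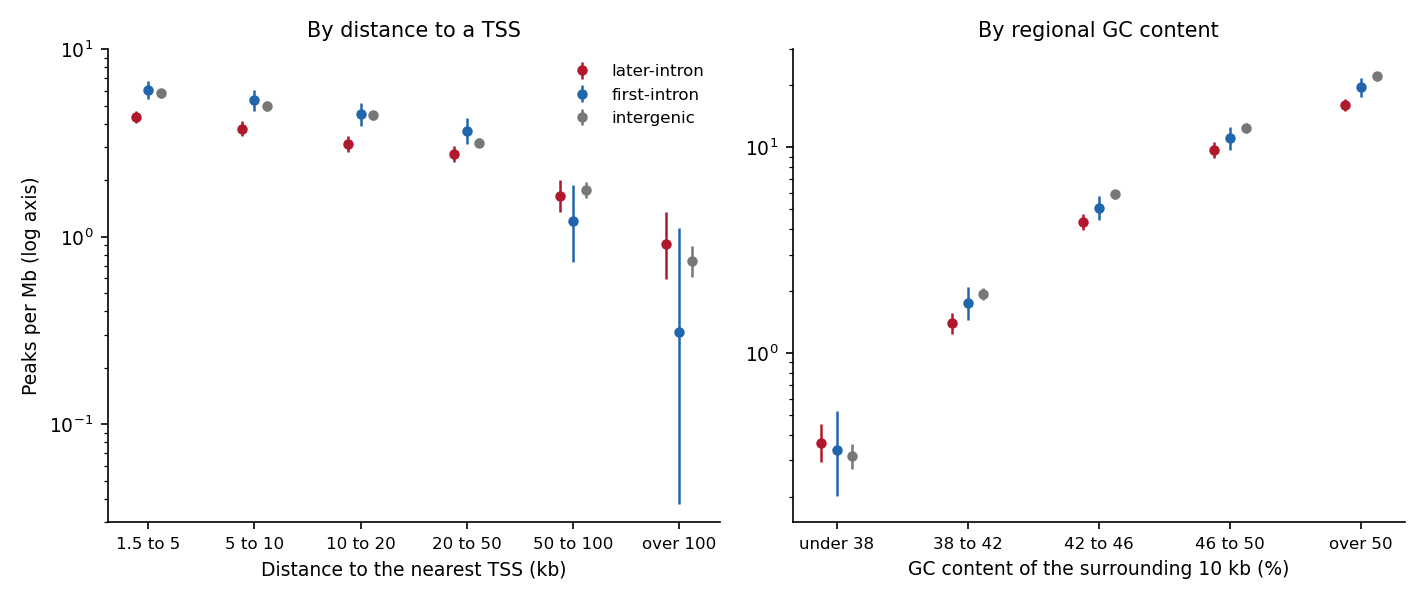
ETS1 peaks per Mb (log axis) in later introns, first introns and intergenic sequence, by distance to the nearest TSS (left) and by the GC content of the surrounding 10 kb (right), with bars for exact 95% Poisson intervals. Later introns were lowest in the 4 bins from 1.5 to 50 kb, and in each class density was many times higher at over 50% GC than at under 38% GC.

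Within later introns the position of the intron counted for less. The second intron held 521 peaks at 3.80 per Mb, above introns 3 (3.19), 4 to 5 (3.11), 6 to 10 (3.31) and 11 or higher (2.74). Relative to intron 2, the ratio for introns 11 and higher was 0.720 (0.634 to 0.818). Introns under 5 kb held 3.75 peaks per Mb and introns of 5 to 20 kb 3.62, a ratio of 0.966 (0.857 to 1.09) that did not differ from 1 beyond counting error. Introns over 100 kb held 2.20 (ratio 0.587, 0.506 to 0.680). Up to 10000 bp from an exon the density did not fall beyond counting error. It was 3.68 per Mb within 500 bp of an exon, 3.49 at 500 to 2000 bp and 3.48 at 2000 to 10000 bp. Farther away it was 2.65, a ratio of 0.719 (0.625 to 0.830) to the nearest bin. The median distance to an exon was 3667 bp. Bins of this size do not resolve splice sites.

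The peaks were narrow and mostly isolated. Widths ran from 241 to 6473 bp around a median of 653.5 bp, with quartiles at 447 and 988 bp. Of the peaks, 24.1% were over 1000 bp wide (22.4 to 26.0%, Wilson). First-intron peaks differed from this by an amount within counting error (25.9%, difference -1.74 points, Newcombe interval -5.14 to 1.54), and so did intergenic peaks (23.1%, difference 1.06 points, -1.03 to 3.21). Distal peaks in SEs were wider, with 39.1% over 1000 bp, a difference of -15.0 points (-17.5 to -12.4). Another listed peak lay within 10 kb of 39.7% of the later-intron peaks, compared with 52.3% of first-intron peaks (difference -12.6 points, -16.4 to -8.75), 42.03% of intergenic peaks (-2.30 points, -4.73 to 0.147) and 76.2% of distal peaks in SEs (-36.5 points, -39.0 to -33.9). The criteria bear on that share, since SEs are by construction stitched from neighbouring H3K27Ac peaks. The nearest other peak was itself one of these later-intron peaks for 990 (45.8%) and a peak within 1500 bp of a TSS for 806 (37.3%).

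AP-1 was the motif that set these peaks most apart from the sequence beside them. Each 600-bp window at a peak midpoint was paired with the window 5000 bp downstream, where that window held no listed peak (2071 pairs). AP-1 was found in 50.8% of the peak windows and 17.4% of the downstream windows, a difference of 33.4 points (854 pairs with the motif at the peak only, 162 downstream only, exact McNemar test, adjusted p = 3.80e-113 over 8 motifs). The ETS core was present in 87.1% and 74.0%, a difference of 13.1 points (exact McNemar test, adjusted p = 7.86e-26). So short a motif occurs in most windows of this length. In 200-bp windows, the ETS core was found in 53.3% and 37.02% (16.3 points, exact McNemar test, adjusted p = 3.27e-26) and AP-1 in 26.8% and 6.30% (20.5 points, adjusted p = 5.65e-73 over 2096 pairs).

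Among the single words behind these motifs, AGGAAG differed by 20.5 points (69.4% against 49.0%) and AGGAAA by 4.64 points (56.35% against 51.7%). GGGAAG, which is not in the ETS core as defined, differed by 14.1 points, and TGGAAA by 2.61 points (exact McNemar test, unadjusted p = 0.0953). The form with C before the core (CGGAAG or CGGAAA), typical of ETS sites at promoters, was found in 23.6% and 12.7% of windows (exact McNemar test, adjusted p = 4.92e-19). The AP-1 difference rested mainly on TGAGTCA, present in 42.4% of peak windows and 10.2% of downstream windows, while TGAATCA was present in 14.6% and 8.26%. The cyclic AMP response element TGACGTCA, bound by CREB and some AP-1 dimers, was found in 12 peak windows and 4 downstream windows. Several ETS cores in a window were common: 60.0% of peak windows held at least 2 (42.6% downstream). For AP-1 the share was 13.9% (1.98% downstream).

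The other motifs tested showed smaller differences, which were smaller still or reversed in pairs of windows with like GC content. Peak windows had a mean GC content of 52.7% ± 6.16 (SD across 2071 windows) and downstream windows 47.0% ± 8.33. Over all pairs, each of the other 5 motifs was more frequent at peaks: SP/KLF (GGGCGG) by 9.61 points, CTCF (AGGTGGC or AGGGGGC) by 9.17, the E-box CAGGTG, bound by the SNAI and ZEB repressors of epithelial genes, by 5.70, TEAD (GGAATG, the partner of YAP and TAZ) by 5.50 and RUNX (TGTGGT or TGCGGT) by 5.31 (adjusted p at most 8.06e-04). In the 526 pairs whose windows differed by at most 3 points of GC (51.2% and 51.0%), chosen as a comparison after the data had been seen, AP-1 kept a difference of 35.4 points (adjusted p = 2.68e-34), the ETS core 12.5 points (3.88e-06) and the C form 9.70 points (2.35e-04) by the exact McNemar test. SP/KLF (3.61 points), TEAD (4.37), RUNX (3.04) and CTCF (0.190) no longer passed, with adjusted p from 0.204 to 1. With 526 pairs instead of 2071, a difference of a given size passes less easily. Whether any difference changed between the comparisons was not tested. In the 526 pairs the E-box turned to the opposite direction, at 48.9% of peak windows and 57.2% of downstream windows (-8.37 points, exact McNemar test, adjusted p = 0.0206). In 200-bp windows of like GC content (413 pairs) its difference was -5.81 points and did not pass (exact McNemar test, adjusted p = 0.141).

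**Figure D2:**
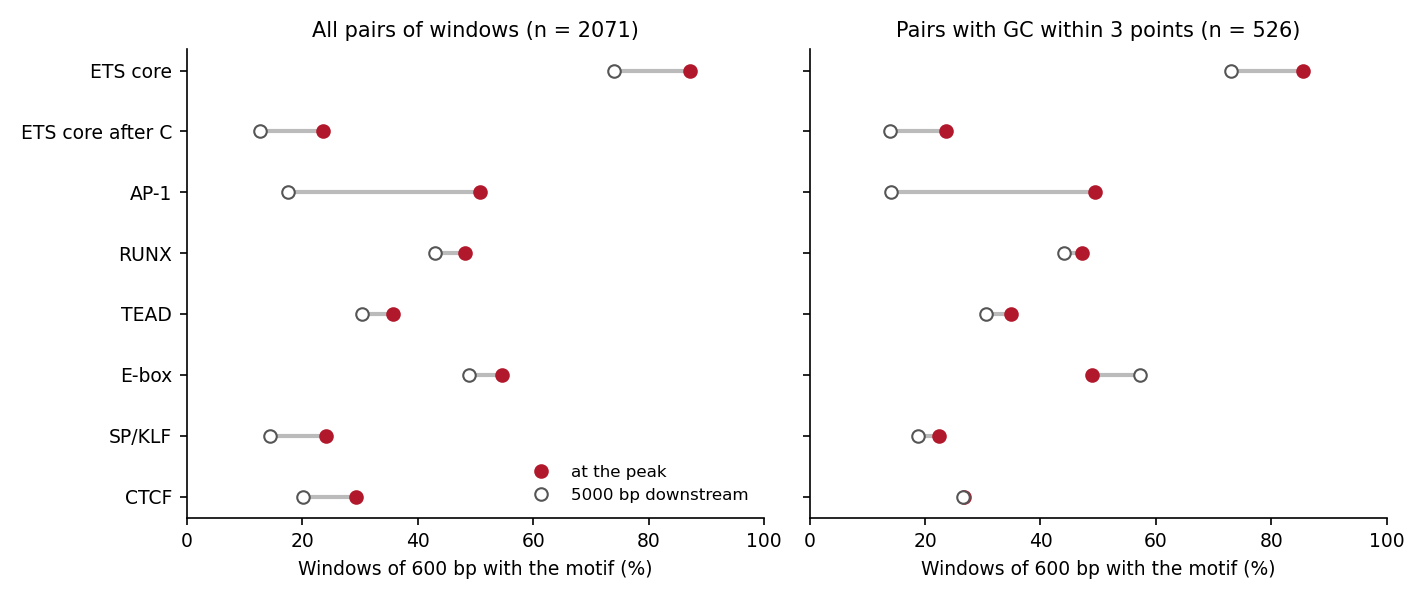
Share of 600-bp windows holding each of 8 motifs at later-intron peaks (filled) and 5000 bp downstream (open), for all 2071 pairs (left) and for the 526 pairs with GC content within 3 points (right). AP-1 and both ETS forms were more frequent at the peak in both panels, while the E-box lay on opposite sides.

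All 2080 6-mers, with both strands merged, were compared in the same pairs. More frequent at peaks were 720 (34.6% of those tested) and less frequent 625 (30.0%), at an adjusted p under 0.05 by the exact McNemar test, so that a single call says little in itself. By odds ratio the first 5 were CGCGAA (4.22), GAGTCA (3.75), GACTCA (3.32), CGACCG (2.78) and CCGCGG (2.77). GAGTCA and GACTCA are parts of the AP-1 site TGAGTCA, found in 55.9% and 53.4% of peak windows. The other 3 contain CG and were rare, in 1.88%, 2.03% and 4.83% of peak windows. Among the pairs of like GC content, 65 words were more frequent at peaks and 100 less frequent, and GAGTCA (3.73) and GACTCA (2.79) had the largest odds ratios among those that passed, ahead of AGTCAT (2.61).

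AP-1 matches were concentrated at peak midpoints. Within 150 bp of the midpoint there were 1.45 AP-1 matches per kb, compared with 0.287 at 1000 to 1500 bp, a ratio of 5.05. The ratio was 4.15 in first-intron peaks, 4.05 in intergenic peaks and 3.26 in distal peaks in SEs. For the ETS core it was 1.47 (3.85 and 2.61 matches per kb), and for the C form 2.19. The central window depended on width. With the peaks split into 4 equal bins by width, AP-1 was in the central 200 bp of 38.3% of the narrowest (241 to 446 bp), 30.7% and 21.1% of the middle bins and 15.5% of the widest (988 to 6473 bp), a difference of 22.8 points between the end bins (Newcombe, 17.6 to 27.8). The ETS core shares were 55.9% and 43.8% in the same end bins. Summits were not used here, and how far the midpoint of a wide peak lies from its summit was not tested.

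**Figure D3:**
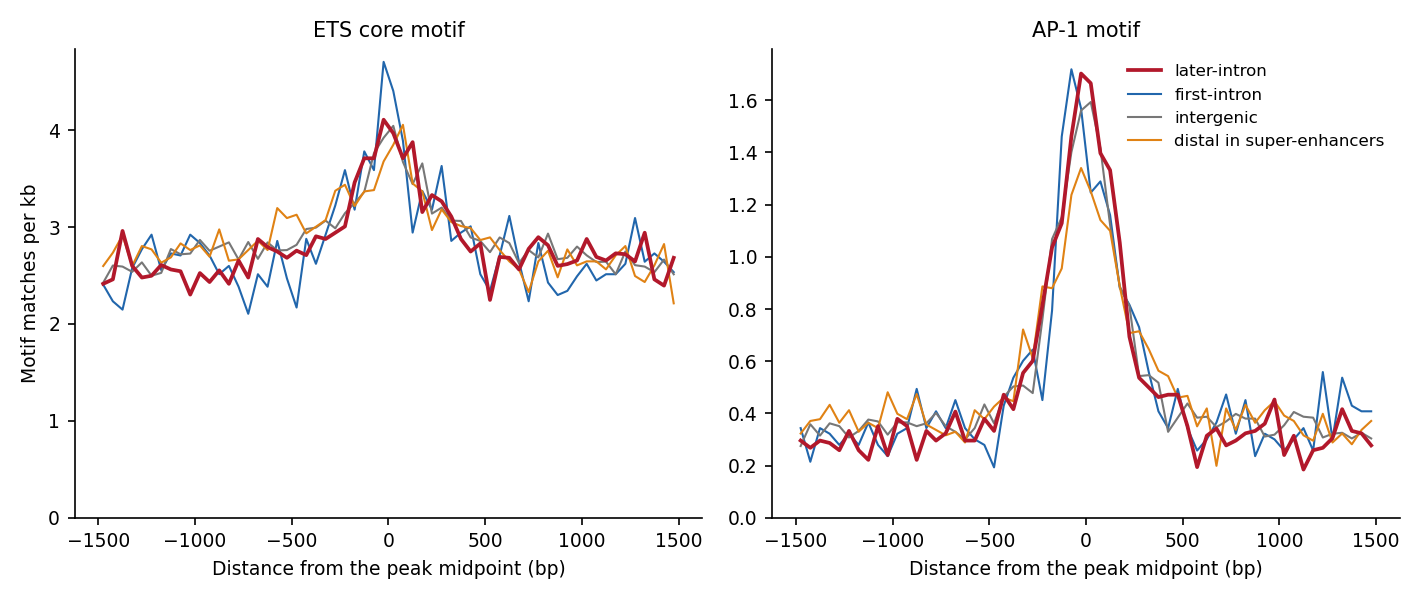
Matches per kb of the ETS core (left) and AP-1 (right) in bins of 50 bp around peak midpoints, for later-intron, first-intron, intergenic and SE-distal peaks. In later-intron peaks AP-1 rose from 0.287 per kb in the flanks to 1.45 near the midpoint, and the ETS core from 2.61 to 3.85.

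The ETS core and AP-1 occurred together about as often as their separate shares imply. Both were found in 43.7% of the later-intron windows of 600 bp, where the product of the shares is 43.9%, and in 13.3% of the 200-bp windows, where the product is 14.1%. An ETS core alone was in 43.4% of the 600-bp windows, AP-1 alone in 6.66% and neither in 6.24%. Among the 945 windows with both, the closest pair was a median of 65.5 bp apart, and in 171 (18.1%) it was within 20 bp, as in the PRKCE window printed above. Of the windows with both motifs, that share was 18.6% in first-intron peaks, 20.7% in intergenic peaks, 17.6% in distal peaks in SEs and 14.4% in downstream windows.

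Motif content did not separate later-intron from first-intron peaks beyond counting error. In 600-bp windows the differences for the 8 motifs lay between -2.02 points (the C form, interval -5.40 to 1.24) and 1.498 points (AP-1, -2.34 to 5.33), and every interval included 0. The interval for the ETS core was -2.71 to 2.43 points. Against distal peaks in SEs, AP-1 was more frequent in later-intron peaks (50.4% and 45.5%, difference 4.91 points, 2.13 to 7.68), RUNX was more frequent by 3.41 points (0.633 to 6.18) and TEAD was less frequent (-2.90 points, -5.58 to -0.210). Against intergenic peaks, the C form was less frequent (23.5% and 27.05%, -3.50 points, -5.61 to -1.34), as was SP/KLF (-2.31 points, -4.43 to -0.135), and the E-box was more frequent (3.22 points, 0.735 to 5.69). These intervals are not adjusted for the 24 comparisons, and several included 0 in windows of 200 bp. There AP-1 still differed from SE peaks (4.90 points, 2.52 to 7.29) and the C form from intergenic peaks (-2.20 points, -3.74 to -0.571), whereas RUNX (1.35 points, -0.900 to 3.62) and TEAD (-1.74, -3.73 to 0.283) against SE peaks and the E-box (0.663, -1.44 to 2.82) and SP/KLF (-1.20, -2.79 to 0.464) against intergenic peaks did not. In windows of 100 bp the interval for the C form included 0 as well (-1.22 points, -2.38 to 0.0402), as did all others against intergenic peaks. Against SE peaks at 100 bp, AP-1 (3.25 points, 1.38 to 5.16), RUNX (2.74, 1.01 to 4.51) and the E-box (1.94, 0.0638 to 3.86) were more frequent. The intervals for the other motifs against SE peaks included 0 there. Over all peaks on chromosomes 1 to 22 and X, most of them near TSSs, AP-1 was in 30.9% of windows, the ETS core in 79.2% and the C form in 39.6%.

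The peaks were spread over many genes. Of 14926 protein-coding genes with later-intron sequence open to the criteria, 1388 held at least 1 (9.30%, Wilson interval 8.84 to 9.78%). A single peak was found in 962 of them (69.3%), 2 or more in 426 and 5 or more in 49, and 27 peaks lay in later introns of more than 1 gene. Host genes had more such sequence than other genes (median 59.8 kb and 12.2 kb). A peak within 1500 bp of the gene's own canonical TSS was present in 54.0% of host genes and 56.4% of other genes, a difference of -2.46 points (-5.22 to 0.275). The difference was not the same in all bins of such sequence per gene, and whether it varied with that amount was not tested. It was -10.6 points (-16.5 to -4.73) among the genes with 20 to 50 kb of later-intron sequence and 15.8 points in the opposite direction (8.07 to 23.5) among the 686 genes with over 200 kb, where 50.2% of 235 host genes and 34.4% of 451 other genes had a peak at the TSS. In the other 3 bins the interval included 0, with 4.18 points under 5 kb, -1.41 at 5 to 20 kb and -2.44 at 50 to 200 kb.

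The 10 genes with the most peaks were all long. In GC content, 8 of them exceeded by more than 4 points the mean of 40.9% over all genes, weighted by later-intron length. CAMTA1, a calmodulin-binding transcription activator on chromosome 1 (6845514 to 7829766, plus strand), held 20 peaks in introns 3 to 6, from 133 to 787 kb from its TSS, or 22.6 per Mb (exact Poisson interval 13.8 to 34.9). Their widths ran from 329 to 3817 bp, with a median of 574 bp. An ETS core was within the central 600 bp of 17 and AP-1 within that of 11, beside 87.1% and 50.4% of all later-intron peaks. The earliest of them in the list was chr1:7609240-7610149 in intron 6. PTPRN2, a receptor-type phosphatase of secretory granules, held 13 in 5 introns (14.1 per Mb). SYN3, a synapsin of synaptic vesicles, held 12 (31.8 per Mb), of which 7 were in intron 6. On the opposite strand inside SYN3 lies TIMP3, an inhibitor of matrix metalloproteases, and the position of a peak does not say which of these genes it acts on. SHANK2, a postsynaptic scaffold, also held 12 (25.5 per Mb), next to 12 others that overlapped regions of ranks 966 to 1900.

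Among the others of these 10 genes, GNG7, a gamma subunit of heterotrimeric G proteins, had the highest density, with 9 peaks in 118.9 kb (75.7 per Mb, 34.6 to 144). All 9 listed peaks within GNG7 were of this class, and none was near its TSS. GMDS, an enzyme of GDP-fucose synthesis, FRMD4A, a scaffold of epithelial polarity, and CDH4, R-cadherin, held 9 each (19.1, 15.1 and 13.7 per Mb). GMDS, at 40.9% GC, was the exception to the high GC content, and FRMD4A was at 44.03%. SH3PXD2A, the invadopodium scaffold TKS5, held 8 (46.2 per Mb) and ADAMTS17, a secreted metalloprotease, 8 (23.01 per Mb). In CDH4 all 9 windows held an ETS core and 3 held AP-1. In GMDS the counts were 9 and 4. Over all later-intron peaks the shares in 600-bp windows were 87.1% for the ETS core and 50.4% for AP-1.

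**Figure D4:**
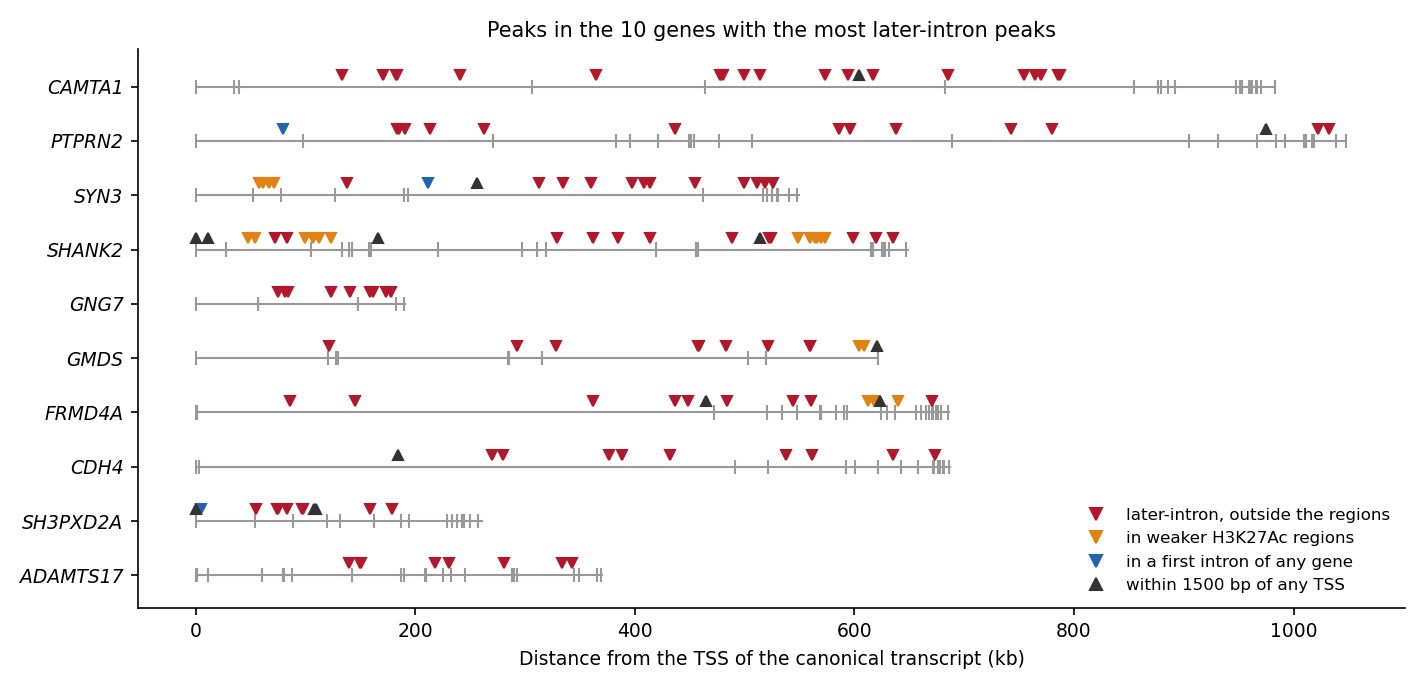
Positions of listed ETS1 peaks along the 10 genes with the most later-intron peaks, in kb from the TSS of the canonical transcript, with exons as vertical ticks. Red triangles are the later-intron peaks, from 8 in SH3PXD2A and ADAMTS17 to 20 in CAMTA1, and in most genes they were spread over several introns.

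A set of 8 gene lists was described by the counts of peaks and genes, beside 9.30% of all genes and 3.24 peaks per Mb in all of them. These densities count a peak once for each host gene (2211 over all genes), which is why the value differs from the 3.22 per Mb given above. The counts are small, and no test was made of any list. TGF-beta pathway genes had the highest density, with 15 peaks in 6 of 20 genes (12.8 per Mb). LTBP2, a matrix protein of the family that anchors latent TGF-beta, held 4, and SMAD6, an inhibitory SMAD, and TGFBR3 held 3 each. In SMAD6 all 3 were in intron 3, between 59.6 and 78.1 kb from the TSS. Integrin and focal adhesion genes held 14 peaks in 6 of 22 genes (10.6 per Mb), led by the actin-to-integrin linkers TNS3 (5) and TNS1 (4) and by ITGB5 (2), the beta subunit of a vitronectin receptor. All 4 peaks of TNS1 held both an ETS core and AP-1 in 600 bp, as did 43.7% of all later-intron peaks.

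Hippo and WNT genes held 19 peaks in 8 of 24 genes (8.51 per Mb). TCF7L2, the WNT effector, held 5, of which 4 were in intron 5. LRP5, a WNT co-receptor, held 3, and WWTR1, the Hippo effector TAZ, held 2 in intron 2. Receptor kinase to ERK genes held 5 in 3 of 23 genes (4.83 per Mb, exact Poisson interval 1.57 to 11.3). Of these, 2 were in EPHA2, an ephrin receptor, 2 in FGFR2, a fibroblast growth factor receptor, and 1 in MAP2K1, which encodes MEK1. Chromatin regulators held 10 in 6 of 24 genes (3.81 per Mb, 1.83 to 7.01), including 4 in HDAC4, a histone deacetylase, and 2 in SMARCA4, the BRG1 ATPase, both in intron 30. The intervals of these last lists include the 3.24 per Mb over all genes.

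The EMT, cell junction and neuronal lists were below the density over all genes. EMT factors and markers held 1 peak in 1 of 14 genes, in intron 11 of MMP2, a gelatinase. That is 0.833 per Mb, with an exact Poisson interval of 0.0211 to 4.64 that includes the value over all genes. Later-intron peaks removed because they overlapped H3K27Ac regions numbered 6 in this list, beside 1 kept, and 6 in the TGF-beta list, beside 15 kept. Over all genes 780 were removed and 2211 kept, counted once for each host gene. The other lists had between 1 and 9 removed. Cell junction genes held 1 peak in 1 of 19 genes (0.385 per Mb), in SHROOM3, a regulator of apical constriction. Neuronal adhesion and synapse genes held 14 peaks in 10 of 26 genes, a share of 38.5%, but in 21.3 Mb, or 0.657 per Mb. DLGAP1, a postsynaptic scaffold, held 3, and the adhesion proteins LSAMP and NRXN3 held 2 each. None of the 26 genes had a peak at its TSS, where 56.2% of all genes had one and the other lists ran from 68.4% (cell junction) to 95% (TGF-beta pathway). The mean GC content of the genes, weighted by later-intron length, was 40.9% over all genes. It was 37.6% in the neuronal list, 38.5% in the EMT list and 39.2% in the junction list. The other 5 lists, in falling order of density, had 41.998% (TGF-beta), 43.6% (integrin and focal adhesion), 42.3% (Hippo and WNT), 41.6% (receptor kinase) and 42.9% (chromatin regulators). All 5 were above the values over all genes in density and in GC content, and the neuronal, EMT and junction lists were below in both. Among the 5, the order of density was not that of GC content. The part of GC content in these densities was not tested.

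**Figure D5:**
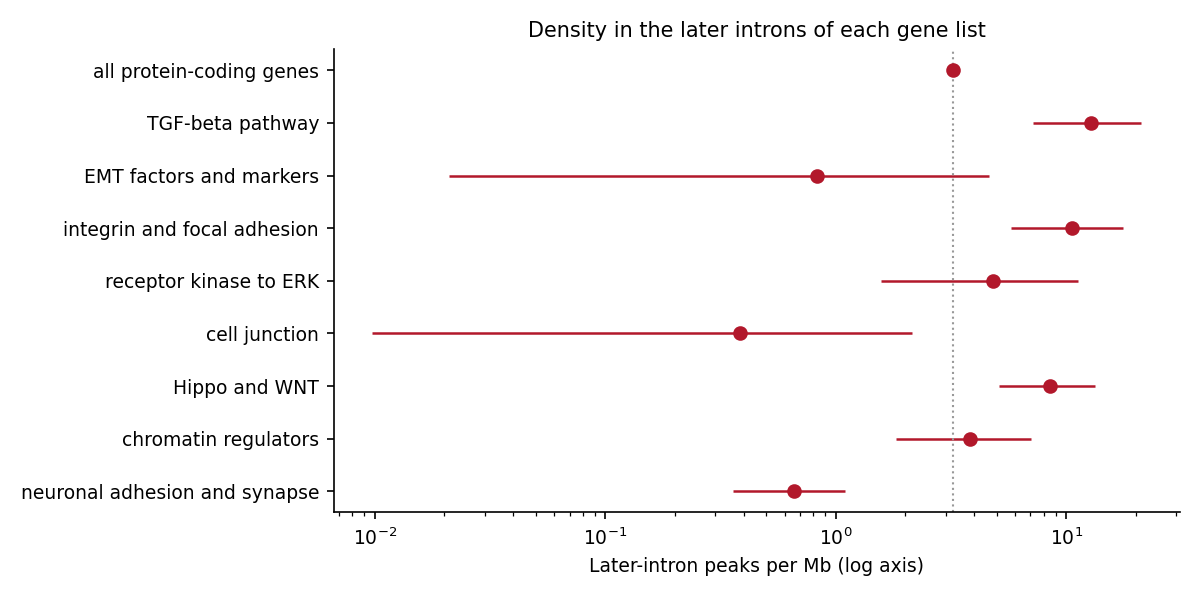
Later-intron ETS1 peaks per Mb (log axis) in all 14926 protein-coding genes and in 8 gene lists, with exact 95% Poisson intervals and a dotted line at the density over all genes (3.24). The TGF-beta list was highest (12.8) and the cell junction list lowest (0.385, from 1 peak).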

How the data were processed

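The authors aligned reads to hg19 with Bowtie 1.1.1, dropped reads that matched several loci, merged files with SAMtools 1.3, called peaks by MACS2 against input and kept those that IDR found reproducible. They deposited 1 list of positions from the 3 pooled samples (chromosome, start, end), with no signal or depth. Positions are given 1-based.

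Introns, exons and TSSs were taken from GENCODE 44 on GRCh37 (254413 transcripts, of which 19478 are canonical protein-coding), and H3K27Ac regions from the study's supplementary table. Densities divide peak counts by the bases that meet the same criteria. Unknown bases were left out, but repeats where reads match several loci were counted as open sequence. A peak was removed if any part of it overlapped an H3K27Ac region, whereas only the overlapping bases were taken from the sequence. The effect of either on the densities was not tested. Tests were the exact conditional binomial test, the exact McNemar test with Benjamini-Hochberg adjustment, Newcombe and Wilson intervals, all two-sided. Motifs were matched on both strands. Genes named were the 10 with the most peaks and the 3 with the most in each list, ties going to the earliest peak in the list. TIMP3 and the words GGGAAG, then TGGAAA and also AGTCAT, fall outside this rule and were picked once their values were known. A further list and a gene of another are not reported here. The peaks, the gene lists and most tests were chosen with earlier results of these data known. The test of words and the intervals were run on simulated independent data, which do not imitate overlapping words or peaks that cluster in genes. Software was Python 3.11.15 with scipy 1.17.1, numpy 2.4.6, pysam 0.24.0, pandas 2.3.3, matplotlib 3.10.9 and samtools 1.23.1.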

Additional observations from a re-analysis of the deposited data

How the results depend on the processing

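The densities relative to first introns and intergenic sequence and the paired ETS core and AP-1 differences held in direction and significance under every alternative run on each of them, among TSS distances of 500 and 3000 bp, removal of SEs only or of no region, all protein-coding transcripts, whole peaks inside later introns, the first 13485 lines of the list, other windows and motif forms, and like GC content. For the density ratios the whole-peak setting is no check, since it dropped peaks from later introns only and so could only lower them. The ETS difference was smallest, 2.03 points, when any GGAA counted. The number of peaks fell to 833 in the first 13485 lines. The share over 1000 bp wide was 26.3% at 500 bp from a TSS, 28.9% with no region removed, 20.4% for whole peaks and 33.3% in the first 13485 lines. The share of host genes was 10.01% at 500 bp, 9.95% with SEs only removed, 11.5% with none removed, 8.07% for whole peaks and 4.57% in the first 13485 lines. The 6-mers that differed numbered 165 in pairs of like GC content, a comparison with fewer pairs (526), against 1345. There the E-box difference was -8.37 points in 600-bp windows. In 200-bp windows of like GC content it was -5.81 points and did not pass.

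No pairing of samples was possible because they are pooled in 1 list, and leaving out a replicate was not possible for the same reason. The order of its lines is not given, so what sets its first 13485 lines apart is not known. The list gives neither depth nor signal, so weaker peaks cannot be recognised.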

Other observations

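Later-intron peaks were uneven along the chromosomes. Density was highest on chromosomes 19 (99 peaks, 8.58 per Mb, exact Poisson interval 6.97 to 10.4), 22 (7.03) and 16 (6.09) and lowest on chromosomes 3 (1.89), 4 (1.12) and X (19 peaks, 0.659 per Mb, 0.397 to 1.03). Within 2 Mb of a chromosome end there were 139 peaks at 7.56 per Mb, at 2 to 5 Mb 7.25, at 5 to 20 Mb 4.46 and farther inside 2.40. From the end inwards, the density in later introns in these bands was 0.717 (0.536 to 0.967), 0.847 (0.654 to 1.105), 0.760 (0.660 to 0.878) and 0.678 (0.609 to 0.754) times that in first introns, and the interval included 1 at 2 to 5 Mb. Chromosome, position and GC content move together in this genome, and their separate parts were not tested.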
